A study of Homo sapiens with 2 samples.

Results

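Keratins are the intermediate filament proteins of epithelial cells, and the 10 keratin genes KRT4, KRT7, KRT8, KRT13, KRT15, KRT17, KRT18, KRT19, KRT23 and KRT80 were followed in RNA-seq of the established cholangiocarcinoma (CCA) line TFK1. These 10 genes are among the 55 keratin genes and the 56638 genes of the deposited tables. They were picked by symbol, because they mark bile duct and squamous epithelium, with earlier results of these libraries known. Their differences are therefore a description and not a test.

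The series holds 1 library from TFK1 cells with a negative control shRNA (shNC) and 1 library from TFK1 cells with a shRNA that knocks down MBD2 (shMBD2). No drug treatment other than antibiotic selection is named for either library in the sources used here. MBD2 is a protein that binds methylated CpG dinucleotides, and it is best known as part of the NuRD repressor complex. Both cultures received a shRNA by lentivirus followed by antibiotic selection, and a single shRNA against MBD2 is represented. With 1 library per condition no difference has a replicate check, so no p-value is given. Each 95% interval is an exact Clopper-Pearson interval for how a gene's reads divided between the libraries, and it covers counting error only. In bulk RNA, fewer cells that use a gene and less RNA per cell cannot be told apart.

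Keratins are obligate partners: each filament is built from a type I and a type II protein. Simple epithelia such as liver and bile duct rest on KRT8 (type II) with KRT18 (type I), and bile duct cells add KRT7 (type II) and KRT19 (type I), which pathologists use to recognize ductal tumors. Stratified epithelia use other pairs. KRT4 and KRT13 form the pair of the upper layers of the mucosa of mouth and esophagus, KRT15 belongs to basal cells, and KRT17 to hair follicles and to activated or basal-like epithelium. KRT80 is a widely expressed type II keratin of differentiated epithelia, and KRT23 is a type I keratin.

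The counts summed to 14728814 in shMBD2 and 14467406 in shNC. MBD2 had 365 counts in shMBD2 and 1013 in shNC, a log2 fold change (log2FC, shMBD2 over shNC) of -1.48 (interval -1.66 to -1.31), so the targeted gene went with the labels. Log2FC was computed after TMM scaling with 0.5 prior counts, for the 17545 genes whose counts in both libraries added up to 10 or more. The keratins KRT13 and KRT17 did not reach that minimum, which left 8 of the 10. Marker lists of leukocytes, fibroblasts and endothelium summed to 94, 14 and 0 counts in shMBD2 and to 49, 22 and 1 in shNC, and almost all of the leukocyte counts were ITGB2, with 92 and 46.

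KRT4 had the lowest log2FC of the keratins. In GENCODE 29 (GRCh38) it spans 52806549 to 52814551 of chromosome 12, on the minus strand. Because MBD2 recognizes methylated CpG dinucleotides, the 250 bases upstream of the start that RefSeq (GRCh38.p14) gives are shown 5' to 3' on the gene's strand, with each CpG in capitals. KRT4 lies at chr12:52814117-52814366 and KRT8, the most abundant keratin, at chr12:52926470-52926719. KRT12 at chr17:40867224-40867473 and KRT20 at chr17:40885243-40885492 are shown because they were the other keratins with a log2FC below -1, and both were chosen after their values were seen. KRT4 and KRT8 were the only members of the 10 with an entry in the promoter table used here.
KRT4: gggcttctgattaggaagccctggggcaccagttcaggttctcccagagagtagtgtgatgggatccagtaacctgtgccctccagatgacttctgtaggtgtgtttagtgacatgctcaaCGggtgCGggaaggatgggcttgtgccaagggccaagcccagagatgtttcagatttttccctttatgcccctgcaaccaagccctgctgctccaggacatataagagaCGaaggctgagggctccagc
KRT8: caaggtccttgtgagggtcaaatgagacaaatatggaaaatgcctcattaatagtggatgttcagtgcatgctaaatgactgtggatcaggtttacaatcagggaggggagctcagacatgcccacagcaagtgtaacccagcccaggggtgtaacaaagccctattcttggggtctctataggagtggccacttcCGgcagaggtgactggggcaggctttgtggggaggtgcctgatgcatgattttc
KRT12: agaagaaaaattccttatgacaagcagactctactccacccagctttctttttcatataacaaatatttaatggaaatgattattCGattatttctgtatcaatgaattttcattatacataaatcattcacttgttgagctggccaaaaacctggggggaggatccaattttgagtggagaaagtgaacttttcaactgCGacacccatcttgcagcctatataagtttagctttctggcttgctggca
KRT20: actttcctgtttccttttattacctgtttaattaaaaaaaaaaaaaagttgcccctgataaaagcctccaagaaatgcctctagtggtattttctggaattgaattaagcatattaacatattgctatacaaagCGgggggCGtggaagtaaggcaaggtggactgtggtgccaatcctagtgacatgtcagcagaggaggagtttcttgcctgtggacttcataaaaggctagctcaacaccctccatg

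These windows held few CpG dinucleotides. Over the whole 300-base window, from 250 bases before the start to 50 after it, KRT4 had 5 CpG, KRT8 2, KRT12 2 and KRT20 2, against a median of 14 over all 35116 windows of the RefSeq table. The ratio of observed to expected CpG was 0.213 for KRT4 and 0.579 in the median window. Low CpG content was not particular to these genes: 33.7% of all windows had at most 5 CpG, and the 38 windows matched to 34 of the 55 keratin genes ranged from 0 to 8 with a median of 2. The letters TATAA, searched on both strands, occurred in 28 of the 38 keratin windows and in 20.4% of all windows. In KRT4 they stood from 29 to 25 bases before the start. The AP-1 motif TGACTCA was found in 0 of the 38 keratin windows and in 4.95% of all windows, and the GC box GGGCGG in 6 keratin windows and in 45.0% of all. All matched keratin windows were on the minus strand. Among the keratins without a window were KRT7, KRT18, KRT19, KRT80, KRT81 and KRT86. Most matched genes had few or no reads, so these keratin values describe mostly genes with little RNA here. The starts used are not the only ones that GENCODE 29 lists. The KRT4 start at 52814116 belongs there to transcripts marked for nonsense-mediated decay, while the protein-coding KRT4 transcript starts at 52814551, so the KRT4 bases shown lie inside the gene span given above. KRT8 likewise has several starts. The KRT8 start used, 52926469, belongs to a protein-coding transcript. Other protein-coding KRT8 transcripts start at 52903648, 52906618 or 52907060, or between 52949776 and 52949882. Which start the KRT8 reads came from was not measured, so its CpG count holds for the window shown only. No methylation or binding was measured in these libraries.

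Of the 10 keratins, the simple epithelial keratins KRT8, KRT7 and KRT18 were the most abundant. KRT8 had 3006 TPM (a level scaled by gene length and by library) in shMBD2 and 3890 TPM in shNC, which ranked it 21st and 20th of all genes. KRT7 had 1160 and 1327 TPM, and KRT18 had 526 and 686 TPM. All 3 were lower in shMBD2, each by less than 1 on the log2 scale.

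In counts, KRT8 had 49193 in shMBD2 and 62047 in shNC, a log2FC of -0.34 (interval -0.36 to -0.33). KRT18, its usual partner, had 6277 and 7981 counts, a log2FC of -0.36 (interval -0.40 to -0.31). The intervals of this pair overlapped, and the ratio of KRT8 to KRT18 in TPM was 5.72 in shMBD2 and 5.67 in shNC. KRT7 had 11632 and 12975 counts, a log2FC of -0.17 (interval -0.20 to -0.13), which was nearer to 0 than either. These intervals are narrow because the genes are deeply counted, and the variation between cultures, which they leave out, was not measured.

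KRT19 was the exception among the simple keratins, both in level and in direction. This type I keratin of bile duct cells had 15.0 TPM in shMBD2 and 9.04 TPM in shNC, which ranked it 7937th and 9830th of all genes, far under its ductal companion KRT7. The ratio of KRT7 to KRT19 in TPM was 77.5 in shMBD2 and 147 in shNC. With 119 and 70 counts, KRT19 had a log2FC of 0.75 (interval 0.32 to 1.20), so it was higher in shMBD2 where KRT7, KRT8 and KRT18 were lower. Its interval reached past 1.

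**Figure D1:**
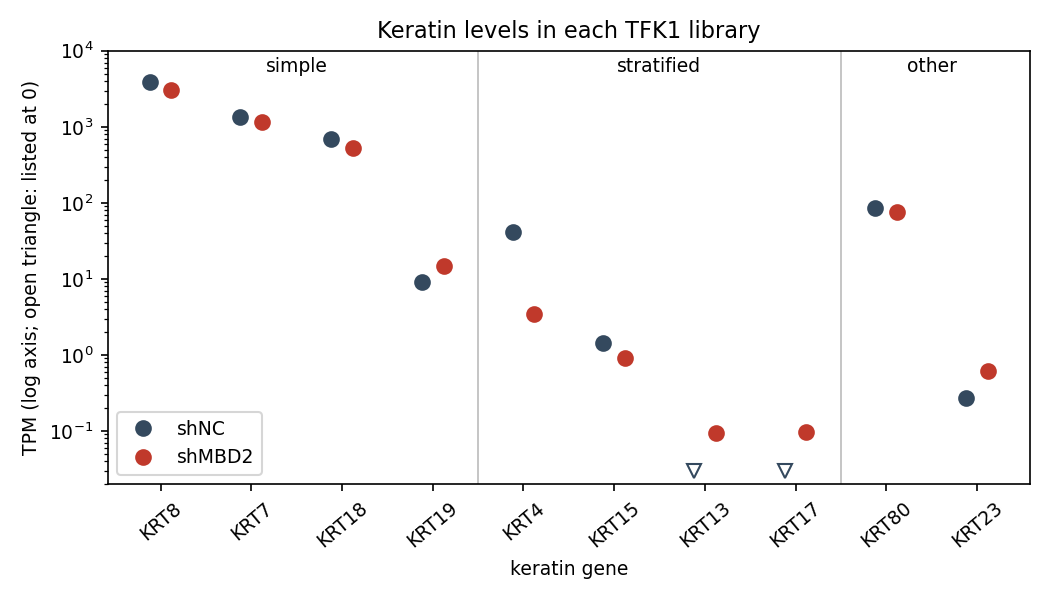
Level of each of the 10 keratins in TPM (log axis) in the shNC (dark) and shMBD2 (red) libraries, 1 point per library, with open triangles for a gene listed at 0. KRT8, KRT7 and KRT18 lie at 526 TPM or above in both libraries, while KRT4 is at 40.8 TPM in shNC and 3.46 TPM in shMBD2.

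The stratified keratins among the members were scarce apart from KRT4. KRT4, the type II keratin of mucosal suprabasal cells, had 40.8 TPM in shNC and 3.46 TPM in shMBD2. It ranked 3962nd of all genes by TPM in shNC and 12695th in shMBD2. In counts it had 586 in shNC and 51 in shMBD2, a log2FC of -3.52 (interval -3.97 to -3.12) and a level 11.5-fold lower in shMBD2. Of the 17545 genes past the filter, KRT4 ranked 27th from the lowest log2FC.

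KRT13, the type I partner of KRT4, had 1 count in shMBD2 and 0 in shNC. KRT17 likewise had 1 and 0 counts, so no fold is given for either gene. The KRT4 reads of shNC were therefore not matched by reads of its usual partner. KRT15, the basal type I keratin, had 27 counts in shMBD2 and 42 in shNC, or 0.902 and 1.44 TPM. The interval of its log2FC of -0.64 ran from -1.40 to 0.085, so a difference was not detectable at this depth. KRT5 and KRT14, the defining pair of basal squamous cells, had 3 and 0 counts in shMBD2 and 1 and 1 in shNC. Apart from KRT4, the stratified keratins among the 10 were thus at 42 counts or fewer, so the word squamous rests on KRT4.

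Of the remaining members, KRT80 was well expressed, with 1695 counts in shMBD2 and 1883 in shNC, or 76.1 and 86.8 TPM, which gave a log2FC of -0.16 (interval -0.26 to -0.065). KRT23 had 7 and 3 counts, or 0.616 and 0.271 TPM. The interval of its log2FC of 1.09 ran from -0.92 to 3.80 and covers both directions.

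Of the 8 keratins past the filter, 1 had a log2FC above 1 (KRT23), where 5.48% of all genes past the filter did, and 1 a log2FC below -1 (KRT4), where 5.07% of all genes did. The other 6 lay between these lines. KRT19 and KRT23 were the members above 0, and the 6 members below 0 were KRT4, KRT7, KRT8, KRT15, KRT18 and KRT80. Over all genes past the filter, 8582 lay above 0 and 8963 below 0.

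Set side by side, the 4 simple keratins had a median log2FC of -0.26. The 2 stratified keratins past the filter had a median of -2.08, lower by 1.82 on the log2 scale (difference -1.82), and the median over all genes was -0.0082. The stratified value is the midpoint of KRT4 and KRT15 and not a shared shift. When genes with at least 1 count were kept, KRT13 and KRT17 entered with 1 and 0 counts each and the stratified median became 0.47. With at least 100 counts in sum, KRT4 was alone and the value was -3.52.

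**Figure D2:**
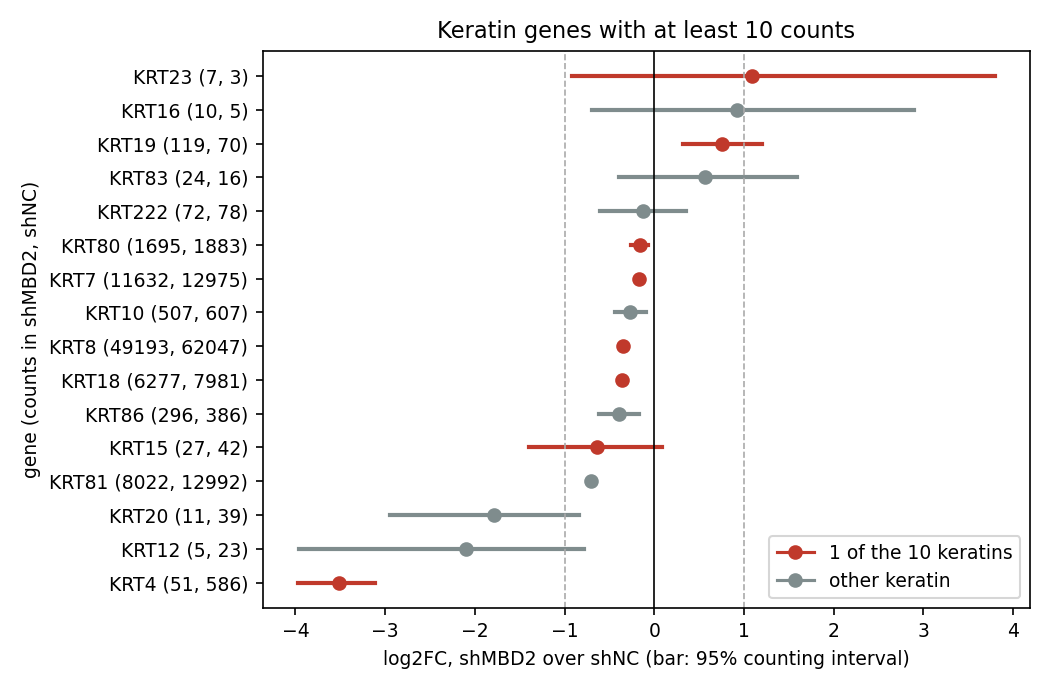
Log2FC (shMBD2 over shNC, horizontal axis) of the 16 keratin genes with at least 10 counts, ordered by value, with counts in shMBD2 and shNC after each name, in red for the 10 keratins and grey for others. Bars are 95% counting intervals and dashed lines mark -1 and 1. KRT4 at -3.52 lies apart from the rest, and the interval of KRT23 spans 0.

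Among the 19 other epithelial keratins and the 26 hair and root sheath keratins, 3 genes had at least 100 counts in the higher library, and all 3 were lower in shMBD2. KRT81, a type II hair keratin, was more abundant than KRT18, with 727 TPM in shMBD2 and 1209 TPM in shNC. It had 8022 and 12992 counts, a log2FC of -0.70 (interval -0.74 to -0.66), further from 0 than those of KRT7, KRT8 and KRT18. KRT86, a second type II hair keratin, had 296 and 386 counts and a log2FC of -0.39 (interval -0.62 to -0.17). KRT10, the type I keratin of suprabasal epidermis, had 507 and 607 counts and a log2FC of -0.27 (interval -0.44 to -0.096). KRT81 and KRT86 are near copies of each other: 44.6% of the 50-base windows of the KRT81 transcript and 40.5% of those of KRT86 occur in transcripts of other genes, so the split of reads between them is uncertain.

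Over the whole family, 16 of the 55 keratin genes passed the filter. Of these 16, 1 had a log2FC above 1 and 3 below -1, where 5.48% and 5.07% of all genes past the filter did. Of the 16 keratins, 4 lay above 0 and 12 below 0, where 8582 and 8963 of all genes did, and the median was -0.31. Besides KRT4, the genes below -1 were KRT20, a type I keratin of intestinal epithelium, and KRT12, the type I keratin of corneal epithelium. KRT20 had 11 counts in shMBD2 and 39 in shNC, a log2FC of -1.79 (interval -2.95 to -0.84). KRT12 had 5 and 23 counts, a log2FC of -2.10 (interval -3.96 to -0.78). Both had under 100 counts in either library, unlike KRT4, and the upper ends of both intervals lay above -1. KRT6A and KRT6B, type II keratins of activated epidermis chosen after their values were seen, had 7 counts each in shMBD2 and 0 in shNC. Set against 3 counts, both were 2.32-fold higher, with counting intervals that began at 1.43-fold. KRT6A and KRT6B share 39.1% and 47.1% of their 50-base windows with other genes, mostly each other and KRT6C, so the same reads may have been divided among them. In the other direction, the type I hair keratin KRT39, chosen likewise, had 0 counts in shMBD2 and 6 in shNC. Set against 3 counts, KRT39 was 2.01-fold lower, and its counting interval reached up to 0.844 of the shNC level.

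Summed over the 55 genes, keratins took 77983 counts in shMBD2 and 99758 in shNC, or 0.529% and 0.690% of all counts. The summed log2FC was -0.36 (interval -0.38 to -0.35). In TPM the sum was 5594 and 7350. By share of keratin TPM, KRT8 held 53.7% in shMBD2 and 52.9% in shNC, KRT7 20.7% and 18.1%, KRT81 13.0% and 16.4%, KRT18 9.40% and 9.33%, and KRT80 1.36% and 1.18%. By counts, with 95% binomial (Clopper-Pearson) intervals, KRT4 took 0.0654% of keratin reads in shMBD2 (interval 0.0487% to 0.0860%) and 0.587% in shNC (interval 0.541% to 0.637%). KRT19 took 0.153% (interval 0.126% to 0.183%) and 0.0702% (interval 0.0547% to 0.0886%). Neither pair of intervals overlapped, and the same held for KRT7, KRT8, KRT80 and KRT81, while the intervals of KRT18 overlapped. These intervals cover counting error only, so such a gap does not set KRT4 and KRT19 apart.

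Type II keratins outweighed type I keratins in both libraries. The 26 type II genes summed to 5002 TPM in shMBD2 and 6589 TPM in shNC, and the 29 type I genes to 592 and 761 TPM. The ratio was 8.45 in shMBD2 and 8.66 in shNC. Most of the type I sum was KRT18, with 526 TPM in shMBD2 and 686 TPM in shNC. Of the windows of its transcript, cut as for KRT81, 43.4% occur in transcripts of other genes. Whether this shared sequence changes the KRT18 level was not tested, so the ratio holds for the deposited values only. RNA levels do not give the amounts of protein, which pair in equal parts.

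**Figure D3:**
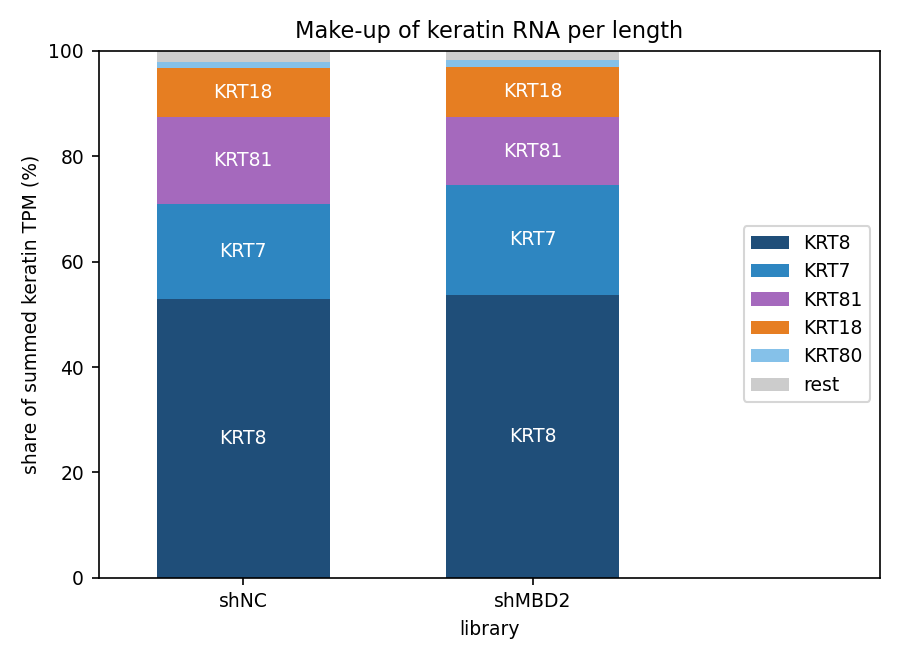
Share of the summed keratin TPM (vertical axis, percent) taken by each of the 5 most abundant keratins and by the rest, in the shNC and shMBD2 libraries, 1 bar per library. KRT8 holds 52.9% in shNC and 53.7% in shMBD2, KRT7 is larger in shMBD2 and KRT81 is larger in shNC.

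Sequence sharing and overlap set how far each value belongs to its gene. KRT4 shares 0% of its 50-base windows with transcripts of other genes in GENCODE 29. The share was 0.328% for KRT15, 0.416% for KRT80, 1.79% for KRT19, 3.73% for KRT8, 4.95% for KRT23 and 10.8% for KRT7, where KRT7-AS covers most of it. KRT17 had 16.0%, KRT13 18.4% and KRT18 43.4%. KRT18 is the member with the most shared sequence, with KRT8 and many KRT18 pseudogenes. Its levels set against those of KRT8 and KRT81 therefore hold for the deposited values only. KRT8 and KRT18 lie on opposite strands and share 525 exonic bases, and since the strand setting of the counting is not given in the sources used here, reads from those bases cannot be told apart. Pseudogenes of the family took few reads. Their 140 entries summed to 549 counts in each library, 0.704% of the keratin total in shMBD2 and 0.550% in shNC. The 50 KRT8 pseudogenes had 367 and 373 counts, of which KRT8P3 had 164 and 169 and KRT8P12 108 and 97. The 67 KRT18 pseudogenes had 90 and 74.

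The members lie in the 2 keratin gene clusters, KRT4, KRT7, KRT8, KRT18 and KRT80 on chromosome 12 and KRT13, KRT15, KRT17, KRT19 and KRT23 on chromosome 17. Within 100 kb of KRT4, the flanking keratins were close to 0: KRT76 had 0 counts in both libraries, KRT3 0 in shMBD2 and 4 in shNC, KRT79 1 and 2, and KRT78 2 and 0. KRT8, in the same interval, had the highest level of the family. These flanking keratins had too few reads to show a difference like that of KRT4.

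Genes that go with these keratins in their usual epithelia were described by lists, chosen like the members with earlier results known. Of the 15 biliary epithelial genes, 14 passed the filter, with a median of 0.13. Of these, 8 lay above 0 and 6 below 0 (8582 and 8963 over all genes). Of the 14, 0 lay above 1 and 1 below -1 (ONECUT1, 18 and 42 counts), where 5.48% and 5.07% of all genes did. ANXA4, an annexin of ductal epithelium, had 360 TPM in shMBD2 and 323 TPM in shNC (log2FC 0.19). SPP1, osteopontin, had 256 and 276 TPM (log2FC -0.080). CDH1, E-cadherin, had 2342 and 1762 counts (log2FC 0.40). SOX9, a ductal transcription factor, had 264 and 435 counts (log2FC -0.73), and EPCAM, an adhesion molecule of ductal cells, had 111 and 162 (log2FC -0.55). Higher in shMBD2 were CLDN4, a tight junction claudin, with 103 and 52 counts (log2FC 0.97, interval 0.48 to 1.49), MUC1, a membrane mucin, with 93 and 58 (log2FC 0.67), and GGT1, gamma-glutamyltransferase, with 1258 and 903 (log2FC 0.47). CDH1, SOX9, EPCAM, CLDN4, MUC1, GGT1 and ONECUT1 were chosen after their values were seen. By TPM the libraries held KRT7, KRT8 and KRT18 at high levels beside low KRT19. ANXA4 and SPP1 were named for the 2 highest TPM values of the list in shNC, so their high levels follow from that choice. The other ductal markers are given here in counts, which do not compare levels between genes. KRT19 is thus not shown to be the only low ductal marker.

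Of the 30 squamous differentiation genes, 15 had 0 counts in both libraries, among them IVL, LOR, SPRR3 and CRNN, which build the cornified envelope or mark the upper layers of squamous epithelium. Of the 10 past the filter, 4 lay above 1 and 2 below -1 (5.48% and 5.07% over all genes), and the median was 0.25. SCEL and EMP1, which alone reached 100 counts in a single library, were lower in shMBD2. SCEL (sciellin) had 38 counts in shMBD2 and 121 in shNC, a log2FC of -1.67 (interval -2.25 to -1.14), and EMP1 had 91 and 225, a log2FC of -1.31 (interval -1.68 to -0.96). CNFN, cornifelin, had the highest TPM of the list in both libraries, 26.1 and 25.7 (log2FC 0.047). The 4 genes above 1, all chosen after their values were seen, had few reads. RHCG, an ammonia transporter of squamous mucosa, had 61 and 10 counts (log2FC 2.54, interval 1.62 to 3.73). SERPINB3 had 15 and 3 (log2FC 2.14, interval 0.49 to 4.74), and FLG 31 and 1 (log2FC 4.39, interval 2.36 to 10.3). SERPINB4 had 17 and 0, which is 5.63-fold higher against 3 counts, with a counting interval that began at 4.10-fold. SERPINB3 and SERPINB4 are near copies, so their split is uncertain. The list had genes in both directions, and KRT4 was not part of a one-way difference across it.

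Of the 12 basal epithelial genes, 11 passed the filter, with a median of -0.013. Of the 11, 2 lay above 1 and 0 below -1, where 5.48% and 5.07% of all genes did. LAMB3, a laminin chain of the basement membrane, was higher in shMBD2, with 961 and 346 counts (log2FC 1.46, interval 1.29 to 1.65). LAMA3, another laminin chain chosen after its values were seen, had 1336 and 1340 counts (log2FC -0.013). ITGB4 and ITGA6, the integrin pair of hemidesmosomes that anchors keratins to the basement membrane, had 89.9 and 88.0 TPM (log2FC 0.059) and 45.1 and 52.9 TPM (log2FC -0.20). TP63, the master factor of basal cells, was low at 35 and 61 counts, beside the low KRT5, KRT14 and KRT15.

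**Figure D4:**
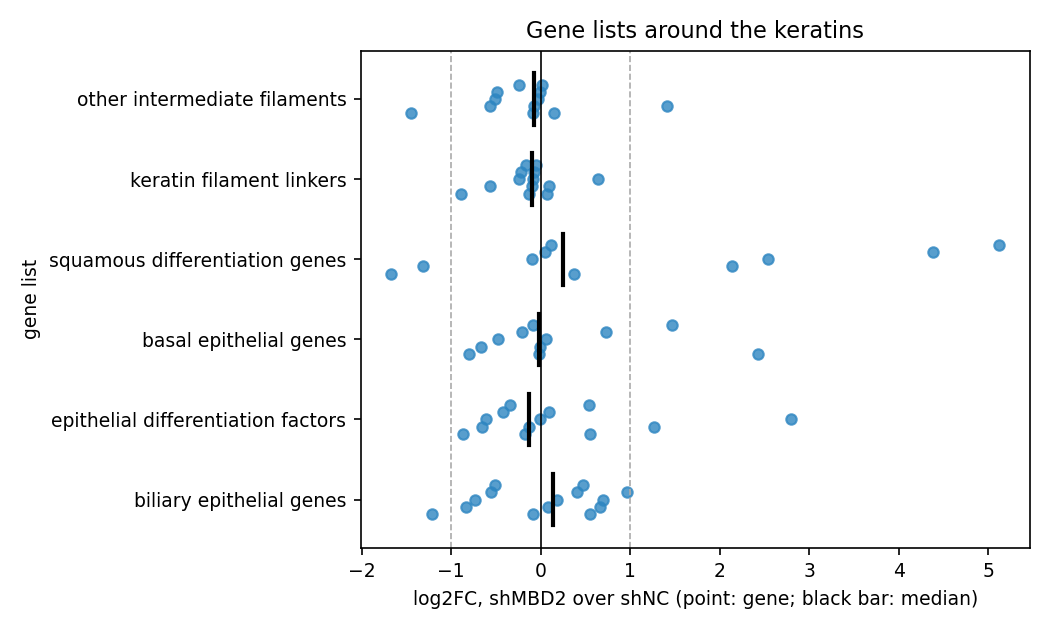
Log2FC (shMBD2 over shNC, horizontal axis) of each gene with at least 10 counts in 6 gene lists (vertical axis), 1 point per gene, with black bars at the median of each list and dashed lines at -1 and 1. The medians lie between -0.13 and 0.25, and the squamous list has points on both sides.

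Of the 14 genes for proteins that hold keratin filaments to junctions or other structures, 13 passed the filter. Of the 13, 0 lay past 1 or -1, where 10.6% of all genes did. The list had 10 below 0 and 3 above 0 (8963 and 8582 over all genes) and a median of -0.095. The log2FC furthest from 0, chosen after their values were seen, were those of the plakin PPL (periplakin, 322 and 594 counts, -0.89, interval -1.09 to -0.69), the plakin EPPK1 (16 and 10 counts, 0.64, interval -0.56 to 1.97) and PKP2 (plakophilin of desmosomes, 312 and 460 counts, -0.57, interval -0.78 to -0.36). JUP, plakoglobin of desmosomes, had 161 TPM in shMBD2 and 191 TPM in shNC (log2FC -0.21). PLEC, plectin, had 140 and 153 TPM (log2FC -0.095). Of the 16 other intermediate filament genes, 12 passed the filter, with a median of -0.076. Of the 12, 1 lay above 1 and 1 below -1, where 5.48% and 5.07% of all genes did. LMNA, the nuclear lamin A/C gene, had 257 and 308 TPM (log2FC -0.24). VIM, vimentin, the filament of mesenchymal cells, had 246 and 265 TPM (log2FC -0.080), a level below KRT18 in both libraries. NES, nestin, had 271 and 101 counts, a log2FC of 1.41 (interval 1.08 to 1.76).

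Of the 17 epithelial differentiation factors, 13 passed the filter, with a median of -0.13. Of the 13, 2 lay above 1 and 0 below -1, where 5.48% and 5.07% of all genes did. EHF had 517 counts in shMBD2 and 214 in shNC, a log2FC of 1.26 (interval 1.03 to 1.50). ELF3, an ETS factor related to EHF, had 59.4 and 92.8 TPM (log2FC -0.62), and KLF5 had 74.1 and 96.1 TPM (log2FC -0.35). GRHL2 and OVOL1, which were chosen after their values were seen, had 0 counts in both libraries. Of the 6 hepatocyte markers, ALB, APOA1 and TTR had 3 counts or fewer in each library, while FGB, fibrinogen beta, had 473 and 1569 counts (log2FC -1.74, interval -1.89 to -1.59). Whether the genes of these lists and KRT4 differ for a shared reason was not tested.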

How the data were processed

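RNA from TFK1 cells with a negative control shRNA (shNC) or a shRNA against MBD2 (shMBD2) was sequenced, with 1 library per condition. The authors deposited raw read counts for each gene. A second deposited table gives TPM by the authors, handled as a score because repeated symbols raise its column sums. The submitters' processing notes name fastp, HISAT2 2.1.0, featureCounts, DESeq 1.18.1 and GRCh38.p13, with no role or order. The annotation and the strandedness are not given in the sources used here. The gene positions in the tables differ from GRCh38 for all 10 keratins, so positions were taken from GENCODE 29 by Ensembl identifier.

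After 46 lines without a gene were dropped, 63677 entries remained, and 1 entry per symbol and value left 56638 genes. Library sizes were scaled by TMM (edgeR 4.0.16, R 4.3.3), and intervals with scipy 1.17.1. Log2FC used 0.5 prior counts and genes with at least 10 counts in sum. No test was run, because 1 library per condition leaves no estimate of the spread between replicates. A fold against a library with 0 counts was computed against 3 counts per library, and it is not an end of the counting interval. The scripts were tested on simulated data.

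The members and lists were chosen with earlier results of these data known. Named genes are all members, MBD2, other keratins and pseudogenes with at least 100 counts in the higher library, and, of each list, up to 4 genes with at least 100 counts and a log2FC past 1 or -1 plus the 2 with the highest TPM in shNC. Genes named outside this rule are marked as such, and KRT3, KRT5, KRT14, KRT76, KRT78, KRT79, IVL, LOR, SPRR3, CRNN, TP63, ALB, APOA1 and TTR were likewise named after their values were seen. Transcripts of GENCODE 29 were cut into 50-base windows to find sequence shared with other genes. Promoter sequences come from RefSeq (GRCh38.p14). The alternatives were size factors of DESeq2 1.42.0, scaling by upper quartile or by total, log2 TPM with 0.1 or 1 added, priors of 2 and 0.1 counts, minimum sums of 1 and 100 counts, and shares by TPM or with pseudogenes. Authors' comparisons and other experiments were not analyzed here. Some genes that the rule names are not reported here.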

Additional observations from a re-analysis of the deposited data

How the results depend on the processing

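No paired analysis was possible because shMBD2 and shNC are single libraries, and for the same reason no replicate could be left out. The log2FC of KRT4 lay between -3.54 and -3.23 over all alternatives, and those of KRT7, KRT8, KRT18 and KRT80 stayed below 0 while KRT19 stayed above 0, between 0.67 and 0.76. KRT23 ranged from 0.35 to 1.19. Scaling by DESeq2 size factors, total or upper quartile shifted log2FC by between -0.017 and 0.0089. With the deposited TPM the median shift over genes was -0.028.

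Of the alternatives, 287 values stayed within their limits, 48 moved and 4 turned direction. The limits were counting intervals for log2FC and shares, medians of interval ends for medians, and a fixed ratio for counts of genes. Wide intervals, as for KRT23, and small scaling shifts left little room to move. The tally therefore describes the settings and does not measure how robust the results are. With TPM plus 0.1 or 1, KRT8 was at -0.37 and the simple keratins had a median of -0.28. The 10 keratins had 0 genes above 1 with TPM plus 0.1, TPM plus 1, a prior of 2 counts or at least 100 counts, and 3 with at least 1 count, and the whole family 0 and 11. Keratins below -1 numbered 8 with at least 1 count and 1 with at least 100. The stratified median was 0.47 with at least 1 count and -3.52 with at least 100, and its difference from the simple median 0.73 and -3.26, since KRT13 and KRT17 enter with 1 count or KRT15 drops out.

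With TPM plus 1, squamous genes above 1 numbered 2, differentiation factors above 1 numbered 1, and other filaments and biliary genes below -1 numbered 0 each. With at least 1 count, squamous genes above 1 numbered 8 with a median of 1.58, other filaments above 1 numbered 4, and differentiation factors below -1 numbered 1. With at least 100 counts in sum, squamous genes above 1 numbered 0 with a median of -1.31 over SCEL, EMP1 and CNFN, the basal median was 0.023, differentiation factors above 1 numbered 1, and other filaments and biliary genes below -1 numbered 0. Genes above 1 and below -1 over the whole table numbered 374 and 340 with TPM plus 1, 4523 and 4303 with at least 1 count, and 213 and 127 with at least 100.

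As shares of keratin TPM in place of counts, shMBD2 and shNC had 53.7% and 52.9% for KRT8, 20.7% and 18.1% for KRT7, 9.40% and 9.33% for KRT18, 1.36% and 1.18% for KRT80 and 0.268% and 0.123% for KRT19. With pseudogenes in the total, the KRT8 share of counts was 62.6% and 61.9%. Depth limits KRT13, KRT15, KRT17 and KRT23 most, with 42 counts or fewer in each library.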
